A study of Mus musculus with 16 samples.

Results

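The genes described here are 10 genes of the T cell receptor complex and of developing T cells, out of 36950 genes in a table of single-cell counts from the left ventricle of male mice under transverse aortic constriction (TAC), a narrowing of the aorta against which the left ventricle must pump. They are Cd3d, Cd3e, Cd3g, Cd4, Cd8a, Cd8b1, Rag1, Dntt, Ptcra and Arpp21; they were taken by symbol, and all 10 are in the table. The labels give 16 mice with a disease stage in weeks: the stages 0w, 2w and 11w hold 2 mice each, 8w holds 3 and 5w holds 7. The sources used here state neither strain nor age, nor if the 0w mice were operated, so 0w stands only for the first stage. Cells were released with a protease and collagenase digestion that enriches myocytes or with a papain digestion that enriches the other cells. The authors annotated 606 of 11492 cells as T cells and divided them into 5 subclusters, T1 with 196 cells, T2 with 137, T3 with 147, T4 with 90 and T5 with 36.

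The T cell receptor is a pair of variable chains that signals through the CD3 chains, of which Cd3d, Cd3e and Cd3g encode the delta, epsilon and gamma subunits. Thymocytes cut and join the genes of the variable chains with the RAG recombinase, which Rag1 encodes together with Rag2, while Dntt encodes the terminal transferase that adds untemplated bases at the joints. In the cortex of the thymus the cells carry both co-receptors, CD4 and the CD8 dimer encoded by Cd8a and Cd8b1, and they lose RAG activity when they mature. Ptcra encodes the pre-T alpha chain, which pairs with a new beta chain at an earlier step, and Arpp21 is an RNA-binding protein gene well known as a transcript of cortical thymocytes. Mature T cells normally express neither Rag1 nor Dntt.

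Promoter windows from RefSeq (GRCm38.p6), running from 250 bases before to 50 bases after a transcript start, were found for 8 of the 10 genes by symbol. The 4 printed here belong to the CD3 genes and the thymocyte genes that the results turn on, and they are written from 5′ to 3′ on the strand of the gene. Capitals mark E-boxes, short motifs bound by E proteins, which are transcription factors of early lymphocytes. The forms searched were CAGCTG, which reads alike on both strands, and also CAGGTG, which appears as CACCTG when it lies on the other strand. Cd3d lies at chr9:44981536-44981835 on the plus strand, Cd3g at chr9:44980382-44980681 on the minus strand, Rag1 at chr2:101649483-101649782 on the minus strand and Dntt at chr19:41029025-41029324 on the plus strand.
Cd3d: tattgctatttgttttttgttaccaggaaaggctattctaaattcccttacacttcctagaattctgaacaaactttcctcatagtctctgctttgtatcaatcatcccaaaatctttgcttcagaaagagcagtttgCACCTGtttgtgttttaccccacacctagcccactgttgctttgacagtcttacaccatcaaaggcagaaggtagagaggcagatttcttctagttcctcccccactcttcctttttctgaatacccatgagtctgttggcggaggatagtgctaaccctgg
Cd3g: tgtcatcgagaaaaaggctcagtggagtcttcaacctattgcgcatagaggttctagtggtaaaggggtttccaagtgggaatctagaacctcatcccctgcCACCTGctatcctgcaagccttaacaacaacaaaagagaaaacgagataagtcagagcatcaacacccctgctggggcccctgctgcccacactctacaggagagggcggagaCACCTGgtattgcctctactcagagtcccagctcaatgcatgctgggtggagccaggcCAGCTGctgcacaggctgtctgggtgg
Rag1: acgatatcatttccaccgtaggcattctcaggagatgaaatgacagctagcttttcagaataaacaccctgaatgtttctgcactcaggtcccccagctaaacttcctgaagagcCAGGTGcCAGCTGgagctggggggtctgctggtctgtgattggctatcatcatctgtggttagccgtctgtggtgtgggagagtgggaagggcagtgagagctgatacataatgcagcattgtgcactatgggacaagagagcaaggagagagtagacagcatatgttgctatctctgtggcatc
Dntt: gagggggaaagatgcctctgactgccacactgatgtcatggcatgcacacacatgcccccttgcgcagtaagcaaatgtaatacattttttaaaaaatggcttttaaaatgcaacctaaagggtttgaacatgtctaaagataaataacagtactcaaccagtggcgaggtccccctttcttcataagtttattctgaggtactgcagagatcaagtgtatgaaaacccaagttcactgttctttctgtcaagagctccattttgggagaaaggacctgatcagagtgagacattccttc
The Cd3g window held 3 matches, the Rag1 window 2 next to each other, at -135 and -128 from the start, the Cd3d window 1 and the Dntt window 0. Cd3e and Cd8a, not printed, had 1 each and Ptcra had 3, while the windows of the several Arpp21 starts had between 0 and 4. Of all 32817 windows of this length, 33.0% held at least 1 match, 7.37% at least 2 and 1.39% at least 3, and a match describes the letters only. Cd3g and Cd3d are neighbours on chromosome 9, separated by 1337 bases, with Cd3e a further 11682 bases away.

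Depth, plates and other cells' RNA bear on every value below. T cells had a median of 14766 non-mitochondrial UMIs (unique molecular identifiers, 1 per captured molecule), and 11 mice had at least 10 of them. Cells lay on 12 plates, lettered A to L by stage: A and B hold the 0w mice, C and D the 2w mice, E 5w replicate 1 and 8w replicate 1, F 5w replicates 2 and 3, G and H the other 5w mice, I and J 8w replicates 2 and 3, and K and L the 11w mice. Stage and plate therefore cannot be told apart, except on plate E, which holds 1 mouse of each of 2 stages. Replicates are separate mice by the labels, and 0 cell names were shared between mice. Intervals below are exact 95% binomial intervals, which cover counting error only.

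All T cells together held transcripts of every gene, at very different levels. Cd3g gave 6942 UMIs and was seen in 29.7% of T cells, Cd3d gave 6427 UMIs in 28.5%, and Cd3e gave 412 UMIs in 10.9%. The recombinase gene Rag1 gave 5159 UMIs in 24.6% of T cells, close to Cd3d and Cd3g but not to Cd3e, and Dntt 3844 UMIs in 15.0%. Cd8b1 was seen in 19.0%, Cd8a in 18.0%, Arpp21 in 11.4% and Cd4 in 8.75%. Ptcra gave 3 UMIs in 2 cells. Levels of different genes are not compared per length here, and these shares move with depth. None of the 10 genes was seen in 34.8% of annotated T cells, and a CD3 gene was seen in 46.7%.

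The other annotated types carried the same transcripts at a lower share. Cd3d was seen in 1.29% of cardiomyocytes (CM), 6.08% of endothelial cells, 4.56% of fibroblasts, 5.38% of macrophages and 10.5% of GN cells, an abbreviation the labels do not explain. Rag1 was seen in 1.49% of cardiomyocytes, 4.63% of endothelial cells, 2.87% of fibroblasts, 3.61% of macrophages and 8.84% of GN cells. The median depth was 12469 UMIs in cardiomyocytes, which should lack both genes, and 11756 in GN cells. A positive T cell held a median of 10 Rag1 UMIs and a positive cardiomyocyte 1. Shares in T cells are thus read against those of the other cells of the same plate.

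The subclusters differed in which of the 10 genes they held, as a description, since the clusters were made from these cells. T5 carried all groups at once: Cd3g in 83.3% of its cells, Cd3d in 77.8%, Cd3e in 55.6%, Cd8b1 in 69.4%, Cd8a in 52.8%, Cd4 in 33.3%, Dntt in 75.0%, Rag1 in 58.3% and Arpp21 in 47.2%. T1 had Rag1 in 44.4% of cells, above its own Cd3d share of 35.2%, with Dntt in 17.9% and Arpp21 in 18.9%. T2 came next, with Rag1 in 28.5% and Dntt in 13.1%. T4 kept CD3 genes, Cd3g in 37.8% and Cd3d in 27.8%, but had Rag1 in 1.11%, 1 of its 90 cells, Cd4 in 1.11% and Dntt in 7.78%, 7 cells. T3 was low in all of them, with Cd3d in 8.84%, Cd3g in 6.80%, Dntt in 2.72% and Rag1 in 0.68%, and 74.1% of its cells showed none of the 10 genes.

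**Figure D1:**
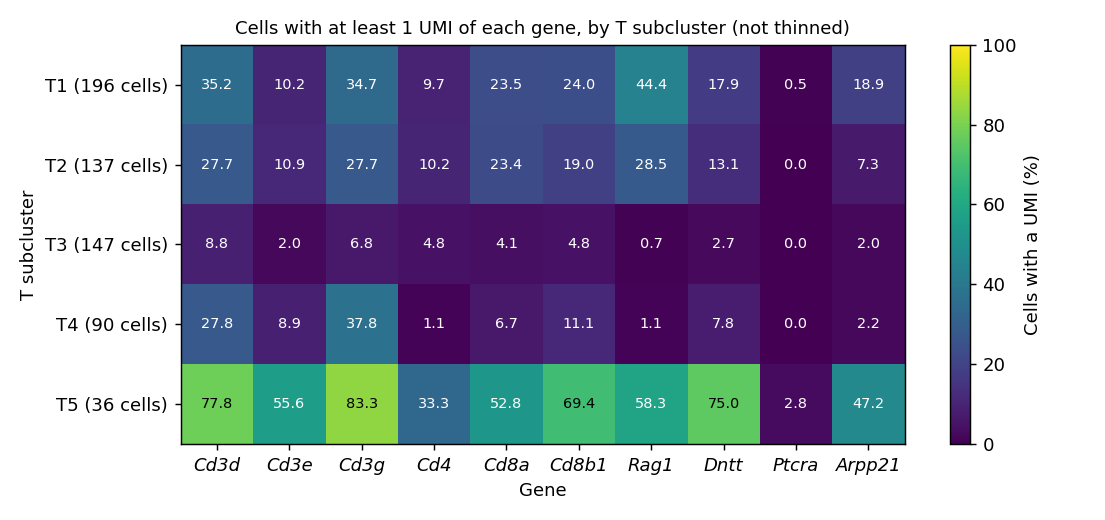
Percent of cells of each T subcluster (rows, with the number of cells) with at least 1 UMI of each gene (columns), not thinned. Rag1 was seen in 58.3% of T5 and 44.4% of T1 cells and in 1 cell each of T3 and T4, while T4 shows Dntt in 7.78%, Cd3d in 27.8% and Cd3g in 37.8% of cells.

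Depth differed between the subclusters, with medians from 12426 UMIs in T4 to 21847 in T5, so each cell was thinned to 1000 non-mitochondrial UMIs; all 606 T cells reach that depth. The expected share with Rag1 was then 29.4% in T1, 16.0% in T5, 9.44% in T2, 0.30% in T4 and 0.08% in T3, so the order of T1 and T5 turned round. For Dntt it was 35.6% in T5, 9.48% in T1, 3.78% in T2, 3.01% in T4 and 1.06% in T3. The CD3 gene Cd3g was expected in 43.8% of T5 cells, 25.3% of T4, 20.1% of T1, 9.40% of T2 and 2.30% of T3. T5 and T1 therefore differed in make-up: the Rag1 UMIs of T5 were concentrated, with 67.4% of 586 in 1 cell, whereas the top cell of T1 held 6.98% of 4299. Dntt was uneven in both, its top cell holding 43.4% of the UMIs in T1 and 39.6% in T5.

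Each subcluster also carried other marker genes beside the 10. In T3 the B cell genes Igkc, Ighm, Cd79a and Ms4a1 were seen in 62.6%, 40.8%, 35.4% and 27.2% of cells. Ighm was more frequent in T5, at 52.8%. Of 11 measured B cell genes, 8 had their highest share in T3 and 3 in T5. In T3 10 of the 11 were present (Vpreb1 was at 0), against 8 each in T4 and T5, 7 in T2 and 6 in T1. The summed level of that list was 6015 CPM (UMIs scaled to a fixed total of non-mitochondrial UMIs) in T3, 2737 in T5, 163 in T4, 114 in T1 and 45.5 in T2. In T4 the granule gene Nkg7 was seen in 46.7%, Ms4a4b, a gene of mature T cells, in 35.6% and Il7r, the receptor of interleukin 7, in 25.6% of cells, and all 10 natural killer and cytotoxic genes had a UMI. T5 held cycling cells: Top2a in 91.7%, Stmn1 in 88.9% and Mki67 in 83.3%. In T2 the 7 cardiomyocyte genes summed to 41865 CPM, against 993 in T5 and 22662 in all cells that are not T cells. At least 1 such transcript was seen in every T2 and T5 cell. It was also seen in 96.4% of T1, 95.2% of T3 and 92.2% of T4 cells and in 96.7% of cells that are not T cells. Plates A and C, with 93 and 27 of the 137 T2 cells, were 77.6% and 82.6% cardiomyocytes. The part of these other transcripts in the shares of the 10 genes was not tested.

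All 7 of the other receptor chain genes had their highest share in T5, and between T1 and T4 they were divided, 3 higher in T1 and 3 in T4. Trbc2, a constant region of the beta chain, was seen in 88.9% of T5 cells, 79.1% of T1, 65.7% of T2, 48.9% of T4 and 13.6% of T3. Trac, the constant region of the alpha chain, was much rarer, from 1.36% of T3 to 13.9% of T5, with 4.44% in T4 and 4.08% in T1. Tcrg-C1, a constant region of the gamma chain, was seen in 6.67% of T4 and 2.55% of T1 cells. Cd247, the zeta chain of the complex, was seen in 36.1% of T5 and 13.3% of T1 cells. Of 24 cortical thymocyte genes, 22 had their highest share in T5 and 2, Hes1 and Ldhb, in T2. Between T1 and T4, 20 were higher in T1 and 4 (Cd28, Notch1, Notch3 and Ldhb) lower. These shares are not thinned, and T5 cells held a median of 3033 genes, against 954 to 2024 in the other subclusters. T5 was also highest for 14 of 14 cell cycle, 18 of 20 signalling and 7 of 8 thymic epithelium genes. It was highest for 6 of 20 mature T cell, 3 of 10 natural killer and 3 of 11 B cell genes. The share over all genes was not counted. Cd24a was seen in 66.7% of T5, 38.3% of T1 and 7.78% of T4 cells, and Ccr9, a thymic chemokine receptor, in 47.2%, 17.3% and 0%. For Ccr9 the count of 0 in T4 covers 90 cells. Rag2, which encodes the partner of Rag1, was seen in 6 T cells only.

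Rag1 lay in cells that also carried T cell receptor transcripts. Of 149 T cells with Rag1, 142 (95.3%) had a CD3 or receptor constant-region transcript, against 62.6% of 457 T cells without it. The median depth was 16285 and 13890 UMIs. Trbc1 was seen in 71.1% and 34.1% and Trbc2 in 84.6% and 47.0% of the cells with and without Rag1. Among B cell genes, Cd79a, a chain of the B cell receptor, was seen in 0 of the 149 cells with Rag1 and in 58 of the 457 without. Igkc, the constant region of the kappa light chain, was seen in 6.71% and 23.2%, and Ms4a1, which encodes CD20, in 1.34% and 10.5%. T3 had Rag1 in 1 of its 147 cells, so it lay almost wholly among the cells without Rag1. It held 52 of the 58 T cells with Cd79a, 92 of the 116 with Igkc and 40 of the 50 with Ms4a1. Trbc2 was seen in 13.6% of T3 cells, below the 47.0% of all T cells without Rag1. These contrasts therefore reflect T3 in part, and they were not tested without it. Myh6, the heavy myosin chain of heart muscle, was seen in 75.8% and 70.9%. Of cells of the other types, 288 had Rag1, with a median of 1 UMI, and 52.8% of these had a receptor transcript, against 9.63% of those without Rag1.

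Cd4 and Cd8a were seen together in 19 T cells, 3.14% of them (1.90 to 4.85). Cd8a alone was seen in 90 cells, Cd4 alone in 34 and neither in 463. Of the 19 cells with both, 15 had Rag1 (78.9%, 54.4 to 93.9) and 8 had Dntt. Of the cells with Cd8a alone, 43.3% had Rag1, of those with Cd4 alone 41.2%, and of those with neither 17.5%. The classes also differ in depth, with medians of 21667, 17295.5, 15786.5 and 13642 UMIs in that order, and detection rises with depth. T5 held 10 of the 19 cells with both, T1 7, T2 1 and T3 1. Plate F gave 30 of the 36 T5 cells, and there Cd8a was seen in 42.2% of T cells and 32.1% of all other cells, and Cd4 in 31.1% and 18.9%. Doublets were not called, so 2 cells caught together would count here.

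**Figure D2:**
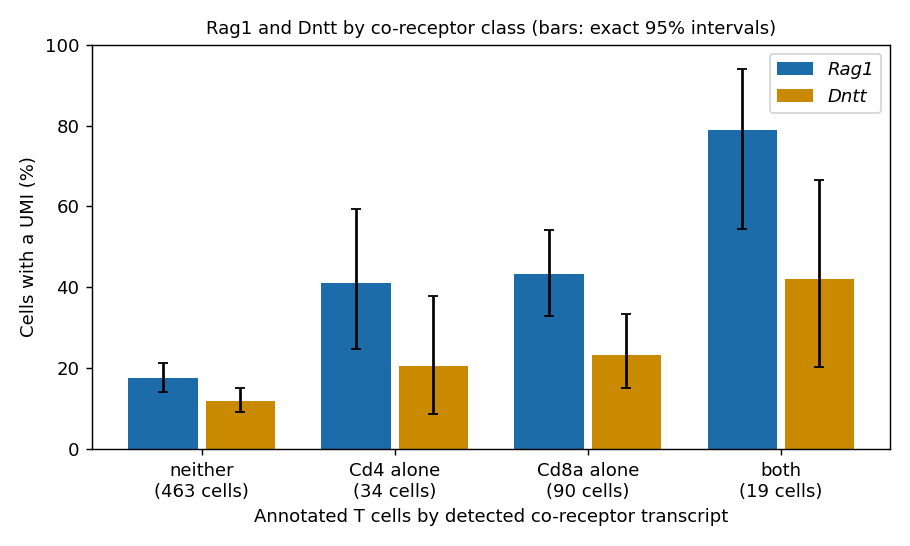
Percent of annotated T cells with a Rag1 UMI (blue) or a Dntt UMI (amber), by which co-receptor transcripts a cell showed; bars with whiskers give the share and its exact 95% interval. The Rag1 share is 17.5% in the 463 cells with neither and 78.9% in the 19 cells with both.

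Across mice, Rag1 was high at 0w, near 0 at 2w and high again in some 5w mice. Of annotated T cells, 32 of 69 (46.4%) and 76 of 180 (42.2%) had Rag1 in the 0w mice, 1 of 40 (2.50%) and 2 of 96 (2.08%) in the 2w mice. At 5w the counts were 8 of 29 (27.6%) in replicate 1, 9 of 19 (47.4%) in replicate 2 and 11 of 26 (42.3%) in replicate 3. The 5w replicates 4 to 7, on plates G and H, had 0 of 4, 0 of 6, 0 of 1 and 0 of 3, too few T cells to show a share. At 8w it was 7 of 41 (17.1%), 0 of 6 and 0 of 13, and at 11w 2 of 27 (7.41%) and 1 of 46 (2.17%). The 0 of 13 in 8w replicate 3 allows a share of cells with a UMI of up to 23.1% (3 cells of the total, for counting error only), which does not limit the share of cells that express the gene. The intervals of both 0w mice, 34.3 to 58.8 and 34.9 to 49.8, lie above those of both 2w mice, 0.06 to 13.2 and 0.25 to 7.32; the 5w mice with at least 19 T cells overlap the 0w mice.

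Dntt followed another order, highest in the 2 mice of plate F. It was seen in 13 of 19 T cells (68.4%) in 5w replicate 2 and 15 of 26 (57.7%) in replicate 3, against 6 of 29 (20.7%) in replicate 1. At 0w it was 6 of 69 (8.70%) and 32 of 180 (17.8%), at 2w 1 of 40 (2.50%) and 8 of 96 (8.33%). At 8w it was 7 of 41 (17.1%), 1 of 6 and 0 of 13, and at 11w 0 of 27 and 2 of 46 (4.35%). The 0w mice thus had Rag1 in more of their T cells than Dntt, and the plate F mice had more with Dntt. Arpp21 was at 11.6% and 11.7% at 0w, 2.50% and 5.21% at 2w, 10.3%, 47.4% and 38.5% in 5w replicates 1 to 3, 17.1% and 0% in 8w replicates 1 and 3, and 7.41% and 4.35% at 11w. Ptcra gave 2 UMIs in 1 cell of 5w replicate 1 and 1 UMI in 8w replicate 1.

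Among the 11 mice with at least 10 T cells, each of the 3 CD3 genes had its highest share in 5w replicate 2. Cd3g was seen in 27.5% and 31.1% of T cells at 0w, 15.0% and 28.1% at 2w, 48.3%, 73.7% and 65.4% in 5w replicates 1 to 3, 22.0% and 7.69% in 8w replicates 1 and 3, and 22.2% and 17.4% at 11w. Cd3d was seen in 20 of 69 cells and 33.9% at 0w, 15.0% and 16.7% at 2w, 27.6%, 84.2% and 69.2% at 5w, 26.8% and 0% at 8w, and 37.0% and 13.0% at 11w. The 3 of these mice from 5w had the highest Cd3g shares. The plate F mice had the highest Cd3d shares, with 5w replicate 1 inside the range of the others. Cd3e was seen in 0% to 13.8% of T cells in the other 9 mice with at least 10 T cells, and in 52.6% and 46.2% in the mice of plate F. On the scale of CPM, Cd3g was 724 and 409 at 0w, 210 and 335 at 2w, 780, 695 and 1333 at 5w, 273 and 4.82 at 8w, and 184 and 145 at 11w. Cd3d was 785 and 320 at 0w, 335 and 344 at 2w, 540, 810 and 515 at 5w, 265 and 0 at 8w, and 716 and 60.2 at 11w. By CPM, 0w replicate 1 and 11w replicate 1 thus lay above 5w replicates 1 and 3 for Cd3d.

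Cd8b1 and Cd8a, the chains of the CD8 dimer, were each seen most often in 5w replicate 2, at 73.7% and 52.6%. Cd8b1 was seen in 18.8% and 20.6% at 0w, 12.5% and 7.29% at 2w, 20.7% and 53.8% in 5w replicates 1 and 3, 22.0% and 0% at 8w, and 14.8% and 8.70% at 11w. Cd8a was seen in 20.3% and 24.4% at 0w, 15.0% and 4.17% at 2w, 27.6% and 34.6% in 5w replicates 1 and 3, 17.1% and 0% at 8w, and 18.5% and 4.35% at 11w. Cd4 was seen in 11.6% and 11.1% at 0w, 2.50% and 2.08% at 2w, 17.2%, 31.6% and 30.8% at 5w, 4.88% and 0% at 8w, and 3.70% and 0% at 11w. Both co-receptors were seen in 3 of 29, 4 of 19 and 5 of 26 T cells of 5w replicates 1 to 3, in 1 of 69 and 5 of 180 at 0w, in 1 of 40 and 0 of 96 at 2w, and in 0 cells of every 8w and 11w mouse. After thinning to 1000 UMIs the expected share with both was at most 1.88% in any mouse, in 5w replicate 3.

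**Figure D3:**
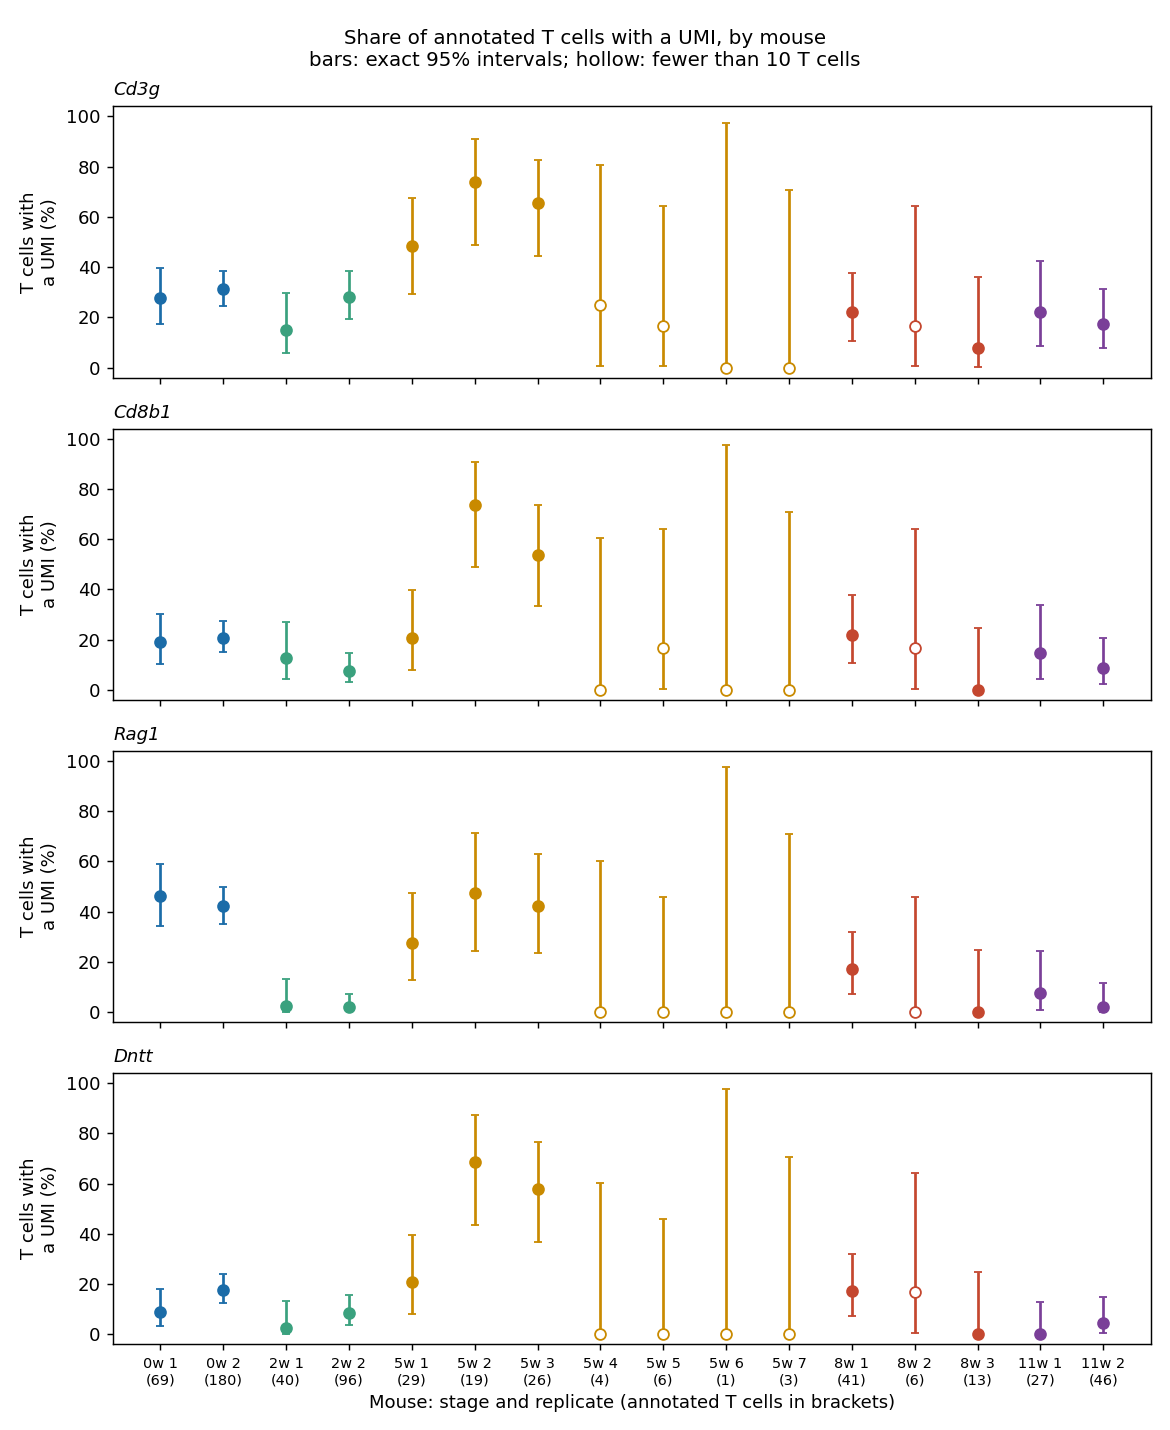
Percent of annotated T cells with a UMI of Cd3g, Cd8b1, Rag1 and Dntt in each of the 16 mice, coloured by stage, with exact 95% intervals; hollow points are mice with fewer than 10 T cells. Rag1 is at 46.4% and 42.2% in the 0w mice and at 2.50% and 2.08% in the 2w mice; Dntt peaks at 68.4% and 57.7% in 5w replicates 2 and 3.

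After thinning, the expected Rag1 shares of the 5w mice lay below those of the 0w mice, although depth was alike before it. Median depths were 19239 and 14921.5 UMIs at 0w and 21161, 15409 and 14873 in 5w replicates 1 to 3. Positive cells held medians of 23 and 8.5 Rag1 UMIs at 0w and 22.5, 5 and 4 in those 5w mice. Thinning removes cells with few UMIs of a gene most often, and the thinned shares carry no interval. Thinned to 1000 UMIs, the expected share with Rag1 was 30.0% and 20.4% at 0w, 15.7%, 13.3% and 13.6% in 5w replicates 1 to 3, 10.9% and 0% in 8w replicates 1 and 3, 7.35% and 1.94% at 11w, and 2.50% and 0.38% at 2w. For Dntt it was 27.9% and 32.7% in 5w replicates 2 and 3 and at most 7.90% in the other 9 mice with at least 10 T cells. Single cells carried much of the RNA: 1 cell held 91.4% of the 432 Rag1 UMIs of 5w replicate 2, 75.3% of the 81 in 11w replicate 1 and all 53 in 2w replicate 1. At 0w the top cell held 17.1% of 1759 and 9.72% of 1883.

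The stages differ in which subclusters they supply. T1 came mostly from plate B, 130 of 196 cells, T2 from plates A and C, 93 and 27 of 137, T5 from plate F, 30 of 36, and T3 and T4 most from plate D, 59 of 147 and 32 of 90. Within T1 alone, Rag1 was seen in 30 of 56 and 39 of 76 cells at 0w, 1 of 2 and 0 of 12 at 2w, 6 of 14 in 5w replicate 1, 7 of 15 in 8w replicate 1, and 2 of 9 and 1 of 6 at 11w. Within T2, it was seen in 1 of 3 and 37 of 90 cells at 0w, and in 0 of 7 and 0 of 21 at 2w. In T1 the lower count at 2w thus rests on the 12 cells of 2w replicate 2. In T2 the 0w side is almost wholly 0w replicate 2. The 0w and 2w cells of both subclusters lie on different plates. In T5 Rag1 was seen in 9 of 13 and 10 of 17 cells in the 2 mice of plate F.

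Plate E carries the 1 comparison of stages within a plate. Its 5w mouse had Rag1 in 8 of 29 T cells and its 8w mouse in 7 of 41, and the intervals overlap. Dntt was in 6 of 29 and 7 of 41, Cd3g in 14 of 29 and 9 of 41, and Cd4 in 5 of 29 and 2 of 41. With 1 mouse of each stage there is no test of these differences. The 5w mouse of plate E had Dntt in 20.7% of T cells where the 5w mice of plate F had 57.7% and 68.4%, so mice of 1 stage differed between plates.

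On plate F transcripts of these genes were also frequent in the cells of other types. On plate F, Cd3d was seen in 75.6% of T cells and 36.8% of all other cells, Cd8b1 in 62.2% and 43.7%, Dntt in 62.2% and 33.2%, and Rag1 in 44.4% and 19.5%. On plate B, Rag1 was seen in 44.7% and 8.95%, and on plate A in 41.2% and 7.61%. On the remaining plates it was seen in at most 1.86% of the other cells, plate E included, where it was seen in 21.4% of T cells and 1.51% of the others. Other genes also differed on plates with few transcripts in other cells: Cd3g was seen in 31.0% and 1.02% on plate C, and Cd3d in 26.1% and 1.12% on plate L. Plate F is the smallest but 1, with 235 cells, 19.1% of them T cells. Rag1 CPM in T cells was 18.6 times that in the others on plate A, 28.7 on plate B, 4.97 on plate D, 70.0 on plate E, 21.8 on plate F and 72.5 on plate L. On plates C, G, H, I, J and K, with 4 to 29 T cells each, T cells held 0 Rag1 UMIs and the other cells 2 to 66. Positive T cells of plate F held a median of 11 Dntt UMIs and 12 Cd3d UMIs, positive other cells 1 of each.

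**Figure D4:**
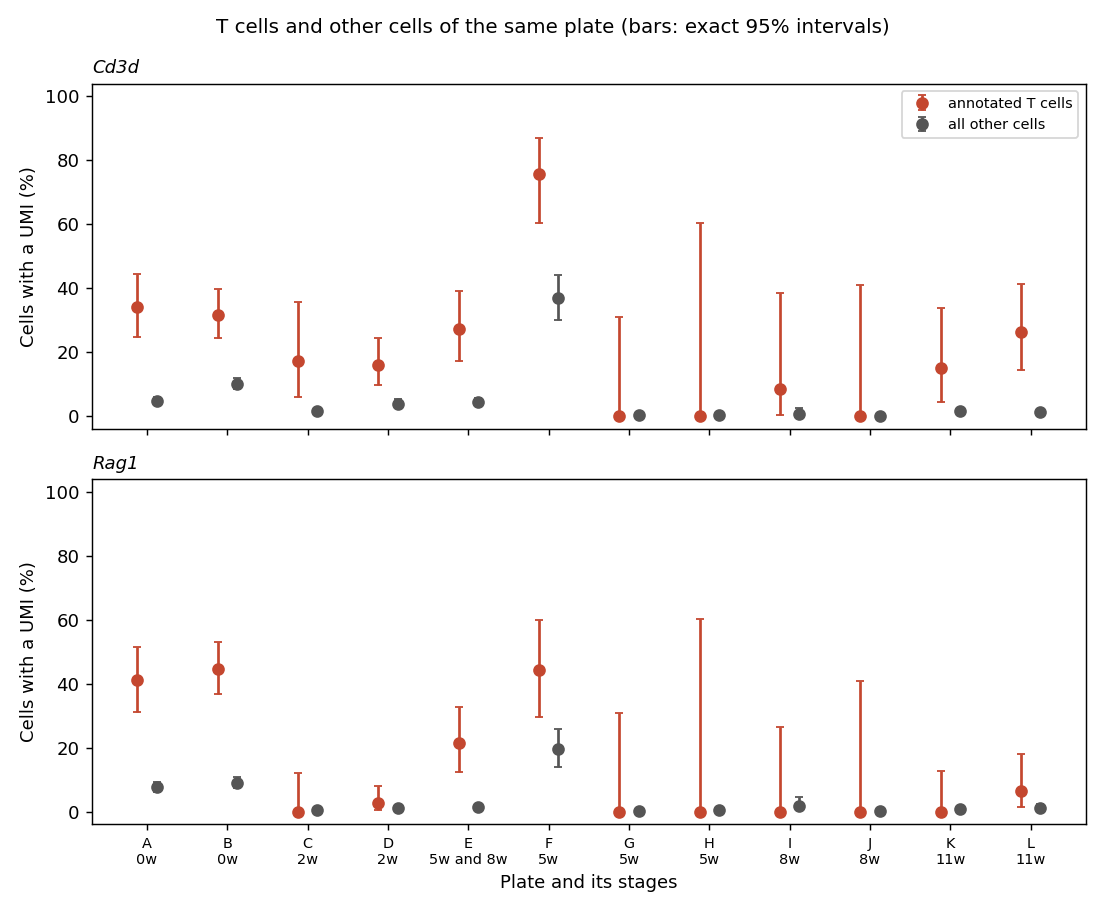
Percent of annotated T cells (red) and of all other cells (grey) of each plate with a UMI of Cd3d or Rag1, with exact 95% intervals; plates run from A to L with their stages below. Shares in other cells reach 36.8% for Cd3d and 19.5% for Rag1 on plate F.

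The ratio of Dntt to the summed CD3 genes separated T cells from the other cells on some plates. On plate B, T cells held 0.45 Dntt UMIs for each CD3 UMI and other cells 0.03, and on plate E 0.16 and 0.004. In T cells, 1 cell held 52.0% of the 2208 Dntt UMIs of plate B and 1 cell 49.3% of the 418 of plate E. These ratios therefore rest in large part on single cells. On plate F the ratios were closer, 0.46 and 0.30, and on plate A they were 0.34 and 0.46. For Rag1 the ratios were 0.69 and 0.94 on plate B, 0.74 and 1.02 on plate A, 0.30 and 0.15 on plate E, and 0.31 and 0.34 on plate F. The part of free RNA or of cells caught together in the per-mouse shares was not tested.

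Differences between stages were tested on sums of T cell counts per mouse, over the 11 mice with at least 10 T cells, with edgeR's quasi-likelihood test and Benjamini-Hochberg adjustment over 12109 genes. Of the 10 genes, 9 passed the filter on low counts and Ptcra did not. Across the 5 stages 44 genes passed an adjusted p of 0.05, 0.363% of those tested, and 0 of the 9 were among them. Dntt came nearest, with an adjusted p of 0.14, then Rag1 with 0.218, Cd3g with an adjusted p of 0.356 and Arpp21 with 0.361. An unadjusted p under 0.05 was reached by 2 of the 9 and by 15.1% of all genes. The mice of 1 stage differed widely: the 2 mice of 8w had 379 and 0 Rag1 UMIs.

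The calls of Rag1, Dntt and Cd3g changed with the settings. Rag1 passed in 8 of 22 alternative fits and Dntt in 10 of 22. Rag1 passed without 5w replicates 2 and 3, the mice of plate F, which leaves 5w replicate 1 alone in its stage. It also passed without 8w replicate 1, which leaves 8w replicate 3 alone at 8w, with 13 T cells and 0 Rag1 UMIs. Dntt had an adjusted p of 0.0265 with DESeq2. It also passed without 2w replicate 2, which leaves 2w replicate 1 alone in its stage. Both also passed in sums over T1, T2 and T5 cells only, a setting added after the data were seen. These are the subclusters with the highest Rag1 and Dntt shares, so that pass is no separate support. 8w replicate 3 had T3 and T4 cells only, which left 8w replicate 1 alone in its stage. Cd3g passed in 2 of 22 fits, without 8w replicate 1 and without both mice of plate E. In both fits 8w replicate 3 is alone at 8w, with 1 Cd3g UMI.

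In the late stages, the mean of 8w and 11w against the mean of 0w and 2w, 0 of 12109 genes passed (0%), with 1516 at an unadjusted p under 0.05 and 176 called by DESeq2. The fitted log2 fold change was -2.58 ± 1.06 (SE) for Dntt (adjusted p 0.347), -2.53 ± 1.40 for Cd3e, -1.42 ± 0.70 for Cd3g and -1.10 ± 0.80 for Cd3d. For the co-receptors it was -0.92 ± 0.96 for Cd8a, -0.28 ± 0.87 for Cd8b1 and 0.32 ± 1.34 for Cd4. Rag1 was at 0.43 ± 0.90 and Arpp21 at -0.08 ± 1.21. The median of the 9 was -0.92, beside -0.75 over all genes tested (-0.47 with RLE scaling). So the genes differed in sign among themselves, and 0 of the 9 passed the adjusted threshold. Without 8w replicate 1, where the 1 remaining 8w mouse holds 1 Cd3g UMI, Cd3g was at -3.67 ± 0.69 with an adjusted p of 0.0332, a value that rests on the 11w mice and that 1 UMI; the other 9 genes then had 0 UMIs in the 8w group.

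At 5w against the mean of 0w and 2w, all 9 fitted values were positive, beside 6341 of the 12109 genes tested. The 9 genes were often seen in the same cells, so their signs are not separate observations. Of the 9, 0 passed, where 26 of 12109 genes (0.215%) did, all lower at 5w. DESeq2 called 110 higher and 121 lower. Cd4 had a log2 fold change of 2.86 ± 1.44 (adjusted p 0.472), Dntt 2.19 ± 1.04 (adjusted p 0.44) and Rag1 1.63 ± 0.96 (adjusted p 0.549). Cd3e was at 1.22 ± 1.34, Cd8a at 1.13 ± 1.01, Arpp21 at 1.11 ± 1.17, Cd8b1 at 0.87 ± 0.92, Cd3g at 0.85 ± 0.73 and Cd3d at 0.09 ± 0.85. The median of the 9 was 1.13, beside 0.09 over all genes tested (0.43 with RLE scaling). Without 5w replicates 2 and 3, Dntt was at 0.73 ± 1.45 and Arpp21 at -0.99 ± 1.88. Since 0w and 2w are pooled here, the high Rag1 of the 0w mice is averaged with the low values at 2w. Both contrasts share the 0w and 2w mice.

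**Figure D5:**
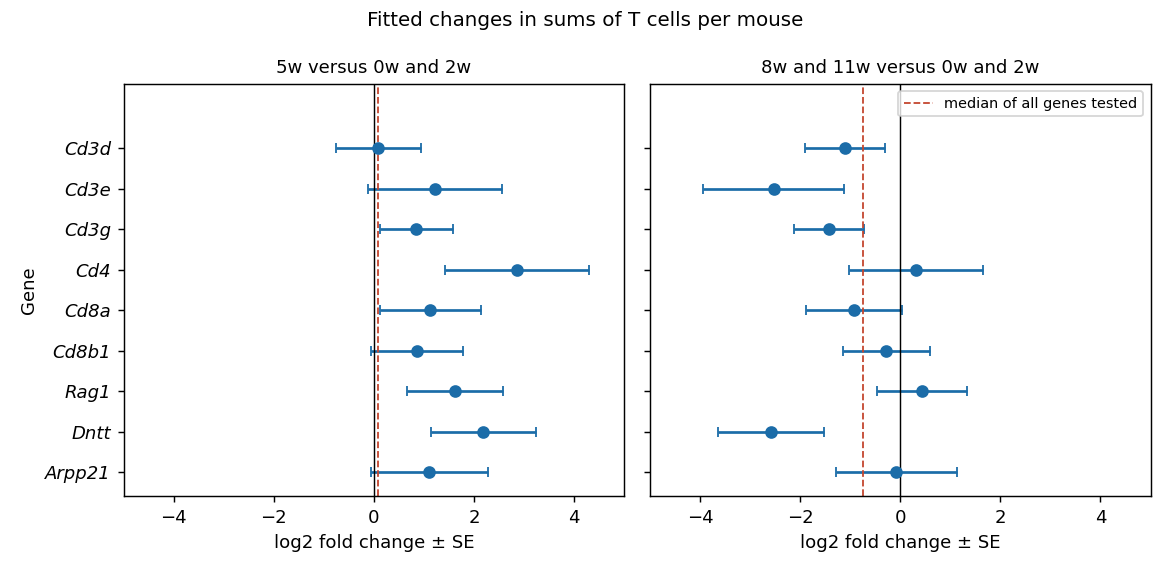
Fitted log2 fold change with its standard error for the 9 tested genes, at 5w (left) and at 8w and 11w (right), each against the mean of 0w and 2w; the dashed line is the median of all genes tested. All 9 points lie above 0 on the left, with standard errors from 0.73 to 1.44, and 2 of 9 do on the right. Of all 12109 genes tested, 6341 lie above 0 at 5w and 3757 at 8w and 11w.

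Related gene lists had few calls. Among 5 tested receptor chains, 20 receptor signalling genes and 22 cortical thymocyte genes, 0 passed in any of the 3 tests, and their median log2 fold change at 5w was 0.90, 0.46 and 0.89. At 8w and 11w these medians were -1.47, -1.34 and -1.08. Of the signalling genes Skap1, an adaptor of T cells, had the smallest p across stages (adjusted 0.215), and Cd6, Thy1 and Cd5 had 0.279, 0.301 and 0.343. Of the cortical genes these were Cd24a (0.218), Endou (0.298), Tox (0.298) and Tcf7 (0.336), and of the receptor chains Trbc2 (0.274), Trbc1 (0.439), Trac (0.688) and Tcrg-C1 (0.721). Of 18 tested genes of mature T cells 1 passed across the stages, the chemokine gene Ccl5 (adjusted p 0.032); Ifng, Ms4a4b and Il2ra had 0.208, 0.215 and 0.277.

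Markers of other cells moved between the mice as well. Of 7 cardiomyocyte genes, Myh6 and Actc1 passed across the stages, with adjusted p of 0.00338 and 0.0225. Their log2 fold changes at 5w were -4.23 ± 0.66 (SE) and -3.94 ± 0.72, with edgeR adjusted p of 0.00506 and 0.0142. Their list's summed level in T cells ranged from 394 CPM in 5w replicate 2 to 17912 in 2w replicate 2 among the 11 mice, with 6893 and 16207 at 0w. The 14 cell cycle genes had 0 called and a median of 2.10 at 5w and -2.18 late, and their summed level was 9051 and 10262 CPM in the plate F mice against 140 to 3972 in the other 9. The B cell list had 0 of 9 called, with a summed level of 13153 CPM in 5w replicate 3 and 175 to 2531 in the other 10 mice. Of the natural killer genes 0 of 6 passed, Nkg7 having the smallest adjusted p, 0.103, and of the 2 tested genes of thymic epithelium, Ccl25 and Ly75, 0 passed; that list's summed level was 31.2 CPM in T cells and 6.19 in the other cells. None of 7 fibroblast, 7 endothelial and 5 macrophage genes passed. The part of these cells in the values of the 10 genes was not tested.

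Genes most like these were sought over 26 sums of T cells per mouse and subcluster with at least 5 cells, among 8317 genes. Sums share mice and plates, so the correlations are descriptions. For Rag1, Dntt, Ptcra and Arpp21 together the nearest gene was Myb, a transcription factor of immature blood cells, with a Pearson r of 0.88, then Gm4258 (0.79), Rpp30 (0.78), Nkap (0.78) and Zmym4 (0.78). For the CD3 genes these were Trmt112 (0.77), Rgcc (0.71), Slc25a5 (0.70), Ramp1 (0.69) and Srp9 (0.69). For Cd4 they were Hes6 (0.85), Sclt1 (0.82), Trp53bp2 (0.80), Dck (0.80) and Gm15340 (0.79), and for the CD8 genes Fyb (0.81), H2-T10 (0.73), Gm6863 (0.73), Snrpd1 (0.71) and Sept1 (0.71). Myb stayed first by Spearman's rho (0.87), while 2 of the 5 genes most like the thymocyte genes remained, 1 of 5 for the CD3 genes, 1 of 5 for Cd4 and 4 of 5 for the CD8 genes. With a pseudocount of 1 in place of 10, 1 of 5 remained for the CD8 genes. Myb itself was seen in 58.3% of T5, 25.5% of T2, 24.0% of T1, 4.44% of T4 and 2.72% of T3 cells.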

How the data were processed

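The authors deposited raw UMI counts per gene and cell, whole numbers without normalization, with their annotation of each cell's mouse, type and subcluster, used as deposited. The tools in the submitters' processing notes are Subread 1.4.6-p1, featureCounts and STAR 2.5.2b, with the builds mm10 and GRCh37; the sources used here do not give their roles, the annotation, strand or UMI collapsing. No cell filter or doublet caller was added here. Counts of T cells were summed per mouse (333848 to 9449464 UMIs), and mice with at least 10 T cells were fitted with edgeR 4.0.16 in R 4.3.3 (filterByExpr, TMM factors of 0.373 to 2.142, robust glmQLFit, two-sided glmQLFTest, 1 fit over all stages, no covariate). CPM in the text are scaled to 1e+06 UMIs outside the 34 mitochondrially encoded genes, without TMM. Thinning used expected hypergeometric shares, computed with scipy 1.17.1. Likeness is Pearson's r of log2(CPM + 10), over genes with at least 200 UMIs. On simulated data the fit called most of the larger seeded changes and few of the smaller ones, so a gene that did not pass may still differ. The smaller changes were already 4-fold. Changes were seeded in the late stages only, in genes above a mean level that Cd3e, Cd4 and Arpp21 do not reach. The other tests were not simulated. DESeq2 1.42.0 was an alternative. The 10 genes and all lists were chosen with earlier results of these data known. Besides the 10 genes, the rule names up to 4 genes of a list by smallest p across stages, or the highest level where untested, and the 5 most alike; markers named by subcluster were chosen from the lists after their values were seen, and of the cell cycle, B cell, cardiomyocyte, stromal and macrophage lists the text gives counts and sums in place of some names. The lists hold 3 further genes that were not analysed here.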

Additional observations from a re-analysis of the deposited data

Results flagged for a closer look

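Ptcra, the pre-T alpha gene, was seen in 3.45% of T cells (1 of 29) in 5w replicate 1 and in 0 cells of the other 6 mice of 5w, which is why it is listed. The value rests on 2 UMIs in 1 cell, and with all other mice of the group at 0, 4 of them with 1 to 6 T cells, any 1 positive cell would be listed. The shares of the 10 genes over the 7 mice of 5w were the 10 groups examined in this way. Chance lists about 1 in 20 groups of continuous values, a rate that cannot be applied to a group of zeros.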

How the results depend on the processing

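The number of genes passing across the stages was 44, and it was 597 without a filter on low counts, 675 with DESeq2, 280 and 119 with at least 20 and at least 5 T cells per mouse, 217 without the mice of plate E, and 42 to 484 leaving out each mouse in turn (69 without 5w replicate 3, 484 without 2w replicate 2). For 8w and 11w against 0w and 2w these counts were 14, 176, 9, 2, 36 and 0 to 25 in place of 0, and for 5w they were 75, 231, 72, 2, 68 and 11 to 61 in place of 26, with 10 under RLE factors. Alternatives chosen after seeing the data gave 382, 24 and 18 in the 3 tests without 5w replicates 2 and 3, 436, 18 and 93 with T1, T2 and T5 cells only, and 81, 1 and 53 without T3 cells. With the replicate number as a block the counts were 132, 14 and 51, and across the stages Rag1 and Dntt passed, with edgeR adjusted p of 0.000215 and 0.00105 in place of 0.218 and 0.14. The numbers do not pair the mice: deviations of same-numbered mice correlated between -0.02 and 0.06.

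In the late contrast the direction turned for Rag1 with the block (-0.25) and without the mice of plate E (-4.66), ranging from -4.62 to 1.25 leaving out a mouse; for Cd4 with the block (-0.91) and without plate E (-2.39), from -4.14 to 0.90; for Cd8b1 with at least 20 T cells (0.19), T1, T2 and T5 only (0.91) and without T3 (0.41), from -5.81 to 0.84; for Cd3d with T1, T2 and T5 only (0.25). Arpp21 was at 0.13 with RLE factors, 0.14 with DESeq2, 0.37 and 0.96 with at least 20 and at least 5 T cells, 0.09 with the block, 1.99 with T1, T2 and T5 only, 1.63 without T3, and -4.79 to 1.68 leaving out a mouse. At 5w, Cd3d was at -0.12 and -0.33 with at least 20 and at least 5 T cells, -0.04 without 5w replicates 2 and 3, -0.16 without T3, and -0.19 to 0.36 leaving out a mouse; without 5w replicates 2 and 3 Cd8b1 was at -0.25 and Arpp21 at -0.99. The cause was not tested. Where 8w replicate 1 or plate E is left out, the 8w group holds 0 UMIs of 9 of the 10 genes and 1 of Cd3g, so those values are no folds.

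Of 594 alternative results of the 9 genes, 536 kept the main outcome, 36 turned direction and 22 passed only in the alternative. No main result of these genes passed, so an unchanged call means only that the gene again did not pass. The test across the stages has no direction to keep. Thinning to 500 or 2000 UMIs moved 1 of 100 subcluster shares beyond its interval, no thinning 32 of 50. Depth limits the shares that were not thinned, and the number of cells limits the mice with under 10 T cells.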
